A study of Mus musculus with 24 samples.

Results

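The Trem2-Tyrobp signalling genes are 10 genes of one microglial receptor pathway, Trem2, Tyrobp, Hcst, Syk, Plcg2, Inpp5d, Spi1, Trem1, Vav1 and Cd33. They were found on the arrays through the gene identifier that the scanner files give for each non-control probe. No measured value entered that matching, but the 10 genes were named with earlier results of these data known. The 10 genes had 15 of the 56605 probes, and 22911 genes with a symbol were on the array in all. A filter on dim probes kept 14 of the 15, and every gene kept at least 1 probe. The probe left out was A_52_P415116 of Trem1, which was not well above background on any of the 24 arrays.

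TREM2 is a receptor on the surface of microglia, the resident macrophages of the brain, and it binds lipids, lipoproteins and amyloid. It has no signalling domain of its own and works through TYROBP, also called DAP12, whose cytoplasmic motif is phosphorylated and then docks the kinase SYK. HCST, also called DAP10, is a second adaptor that recruits phosphoinositide 3-kinase, while VAV1 and PLCG2 carry the signal on to the cytoskeleton and to calcium release. INPP5D (the lipid phosphatase SHIP1) and the sialic acid receptor CD33 restrain the pathway, TREM1 is a related receptor of neutrophils and monocytes, and the Spi1 product PU.1 is the transcription factor of the myeloid lineage. In humans, variants in or near several of these genes, TREM2 among them, are associated with the risk of Alzheimer's disease.

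Hippocampal RNA of 24 male mice was hybridised to Agilent 1-colour arrays, 1 array per sample, in 6 groups. At the end of treatment these were APP-PS1_UA (n = 4), transgenic and given urolithin A, APP-PS1_CTR (n = 3), transgenic and given water, and WT_CTR (n = 4), without the transgenes and given water. At the washout stage they were APP-PS1_UA-WASHOUT (n = 5), APP-PS1_WASHOUT (n = 3) and WT_WASHOUT (n = 5), which had the same genotypes and agents and were kept for 1 month after gavage ended. Urolithin A is a gut bacterial metabolite of ellagitannins. Gavage ran from 2 to 7 months of age. The sources disagree on the daily dose, which the protocol field puts at 200 mg/kg and the design text at 20 mg/kg, and the sample labels give ages of 8 months, and 9 months for the washout groups. All transgenic animals came from a single line, B6.Cg-Tg(APPswe,PSEN1dE9)85Dbo/J, a model of amyloid deposition. The labels name the same strain for the wild type mice, with neither transgene in their genotype. The line's transgenes are driven by a prion protein promoter, not by the promoters of the mouse's own genes. The labels do not say whether samples of a group came from separate litters or cohorts, and p-values measure only the spread between samples.

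The 24 arrays lay on 3 slides. Slide 1 held WT_CTR in its first array row and APP-PS1_CTR with APP-PS1_UA replicate 1 in its second row. Slide 2 carried APP-PS1_UA replicates 2 to 4 beside all WT_WASHOUT arrays, and slide 3 held both transgenic washout groups. On slide 3 the first row had APP-PS1_WASHOUT with APP-PS1_UA-WASHOUT replicate 1, and the second row APP-PS1_UA-WASHOUT replicates 2 to 5. At the washout stage slide and genotype therefore cannot be told apart, and neither can slide and stage in the wild type groups. Between 63.7% and 76.9% of probes were well above background on an array, and arrays of the same group correlated across features at 0.977 to 0.991. All 7 hippocampal neuron markers, among them Prox1 and Wfs1, and all 10 microglial markers were well above background on every array. Precision is limited by how many arrays there were.

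The RefSeq promoter table (build GRCm38.p6) holds windows of 300 bases, 250 before the start of transcription and 50 after it, for 8 of the 10 genes in 9 windows, with no entry for Tyrobp or Spi1. Each window was searched on both strands for GAGGAA, which contains the GGAA core that PU.1 binds, and for GAGGAAGT, a longer match that overlaps it. The shorter motif was in 6 of the 9 windows, against 28.3% of 32851 promoters, and the longer one in 2, those of Inpp5d and Vav1, against 3.20% of promoters. The 4 windows below are those of the receptor, of its second adaptor, and of the pair with the longer motif. Capitals mark GAGGAA or GAGGAAGT, and TTCCTC where the motif lies on the other strand. All are written 5′ to 3′ along the gene.
Trem2, chr17:48346151-48346450, plus strand: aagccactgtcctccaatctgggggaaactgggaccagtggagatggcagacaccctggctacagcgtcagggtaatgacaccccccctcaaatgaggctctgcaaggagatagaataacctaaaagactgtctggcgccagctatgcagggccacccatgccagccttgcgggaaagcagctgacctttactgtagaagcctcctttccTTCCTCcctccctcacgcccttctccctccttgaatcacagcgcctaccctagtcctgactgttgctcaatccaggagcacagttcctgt
Hcst, chr7:30419805-30420104, minus strand: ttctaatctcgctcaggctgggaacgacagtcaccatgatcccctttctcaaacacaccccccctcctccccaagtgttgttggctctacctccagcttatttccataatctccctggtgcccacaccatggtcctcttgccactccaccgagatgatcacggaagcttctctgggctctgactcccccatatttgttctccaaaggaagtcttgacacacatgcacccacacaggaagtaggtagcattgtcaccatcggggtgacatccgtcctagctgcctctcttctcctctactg
Vav1, chr17:57278850-57279149, plus strand: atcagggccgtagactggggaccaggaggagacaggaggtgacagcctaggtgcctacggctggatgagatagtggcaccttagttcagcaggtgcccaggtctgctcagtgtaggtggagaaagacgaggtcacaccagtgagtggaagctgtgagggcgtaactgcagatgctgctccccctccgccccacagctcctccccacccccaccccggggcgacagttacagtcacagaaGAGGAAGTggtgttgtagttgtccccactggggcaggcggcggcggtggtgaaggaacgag
Inpp5d, chr1:87620062-87620361, plus strand: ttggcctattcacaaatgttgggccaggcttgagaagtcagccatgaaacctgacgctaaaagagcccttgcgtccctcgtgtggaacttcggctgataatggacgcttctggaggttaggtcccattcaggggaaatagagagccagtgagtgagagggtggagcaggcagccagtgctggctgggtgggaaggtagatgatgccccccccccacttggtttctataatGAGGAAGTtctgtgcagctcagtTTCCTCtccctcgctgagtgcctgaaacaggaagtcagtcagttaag
With the first transcribed base counted as 1, the motif of Trem2 began at -40, that of Vav1 at -11 and those of Inpp5d at -20 and 4. The Hcst window held neither motif. The windows of Cd33, Trem1 and 1 of the 2 windows of Syk held GAGGAA, at -226, -162 and -9, and that of Plcg2 held none. These matches are letters in a window and say nothing of binding.

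Levels below are log2 processed signals minus the 75th percentile of the array, and they compare 1 probe across arrays, never 1 gene with another. Changes are differences of group means on the same log2 scale, with the standard error (SE) of 1 limma model over all 24 arrays. The adjusted p is that of Benjamini and Hochberg over 35259 features, and a gene below 0.05 was called. The features are 18566 genes and 16693 probes without a symbol. The plot of signal by array gives every value of the 10 genes.

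**Figure D1:**
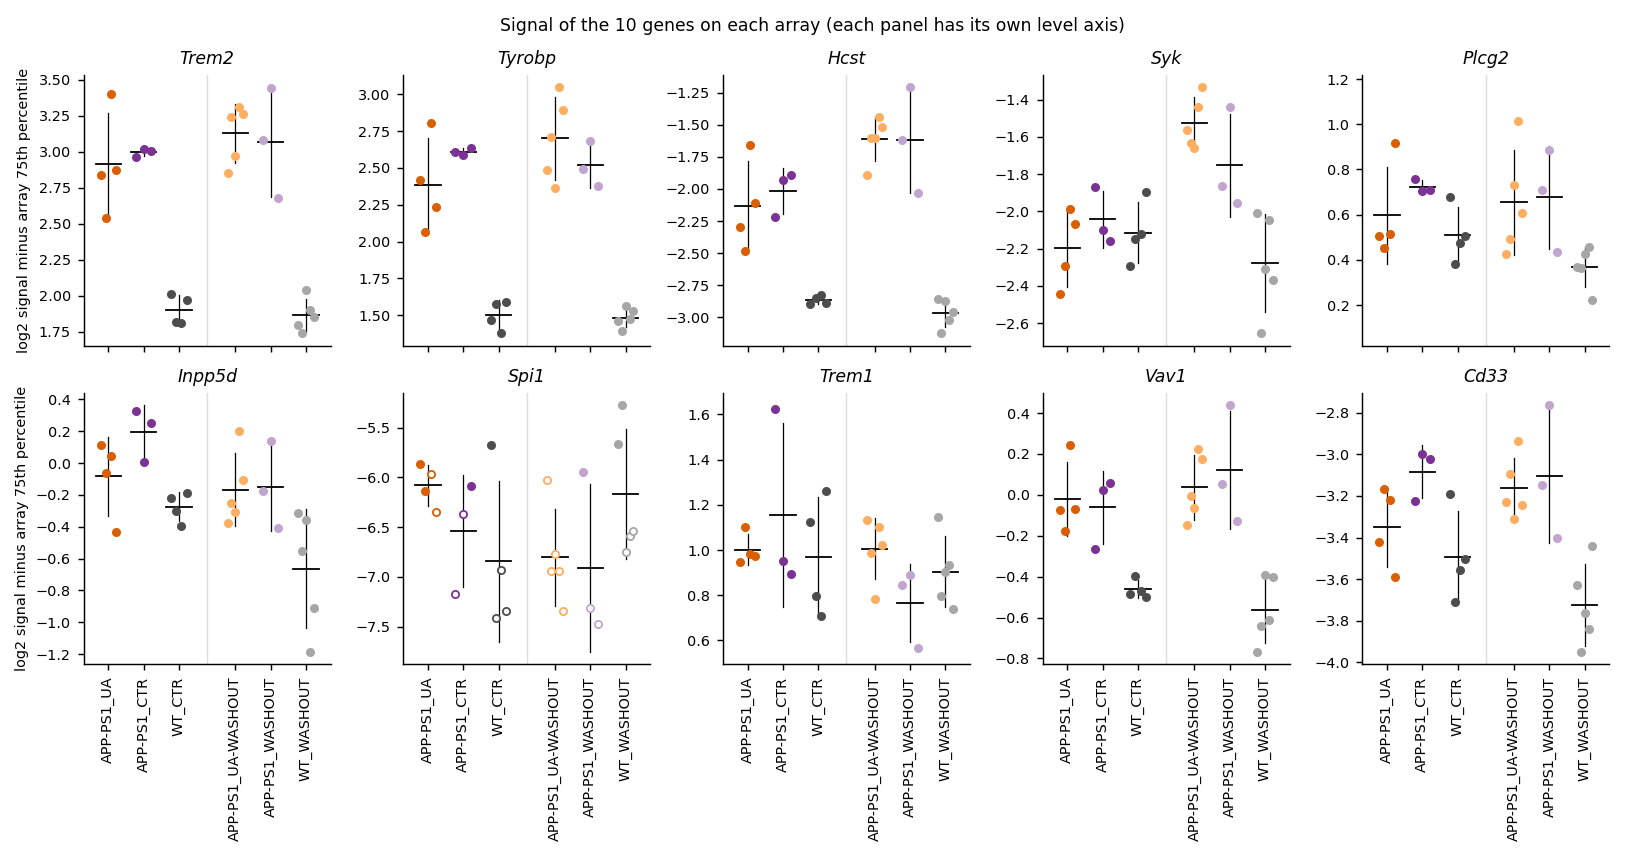
Log2 signal minus the array's 75th percentile (vertical axis) of the 10 genes on each of the 24 arrays, by group; points are arrays (open: not well above background), bars are group means and vertical lines 1 SD. Every transgenic array of Trem2, Tyrobp and Hcst sits above every wild type array of its stage, while those of Trem1 overlap between the groups of each stage.

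At the end of treatment the receptor and its adaptor were higher in transgenic than in wild type hippocampus, by about the same amount. Trem2 was at 2.96, 3.02 and 3.01 in APP-PS1_CTR, against 2.01, 1.82, 1.81 and 1.97 in WT_CTR. Tyrobp was at 2.61, 2.59 and 2.63 in APP-PS1_CTR, against 1.46, 1.58, 1.38 and 1.59 in WT_CTR. The transgenic arrays lay close together and far above all wild type arrays for both genes. Trem2 rose by 1.09 (SE 0.17, 2.13-fold, adjusted p = 0.00606) and Tyrobp by 1.11 (SE 0.15, 2.16-fold, adjusted p = 0.00185). Hcst, which lies next to Tyrobp on chromosome 7, was at -2.22, -1.93 and -1.89 in APP-PS1_CTR, against -2.89, -2.85, -2.82 and -2.89 in WT_CTR. Its groups did not overlap either, and its change of 0.85 (SE 0.18, adjusted p = 0.0516) missed the threshold. In bulk tissue, more cells of a type and more RNA per cell cannot be told apart.

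The kinase Syk showed no such separation at this stage, with -1.87, -2.10 and -2.16 in APP-PS1_CTR, against -2.29, -2.15, -2.12 and -1.89 in WT_CTR. Its change was 0.07, with a 95% interval from -0.26 to 0.40. The exchange factor Vav1 was at -0.27, 0.03 and 0.06 in APP-PS1_CTR, against -0.48, -0.40, -0.47 and -0.50 in WT_CTR. The SHIP1 gene Inpp5d was at 0.33, 0.01 and 0.25 in APP-PS1_CTR, against -0.22, -0.30, -0.39 and -0.19 in WT_CTR. For both genes each transgenic array was above each wild type array, with changes of 0.40 (SE 0.14, adjusted p = 0.588) for Vav1 and 0.47 (SE 0.19, adjusted p = 0.723) for Inpp5d. The phospholipase Plcg2 ranged from 0.71 to 0.76 in APP-PS1_CTR, against 0.38 to 0.68 in WT_CTR, and its groups also did not overlap (change 0.21, adjusted p = 0.815). Cd33 ranged from -3.23 to -3.00 in APP-PS1_CTR, against -3.71 to -3.19 in WT_CTR, with 1 wild type array among the transgenic values (change 0.41, adjusted p = 0.666). Trem1, measured by its brighter probe, ranged from 0.89 to 1.62 in APP-PS1_CTR, against 0.71 to 1.26 in WT_CTR. These groups overlapped (change 0.18, adjusted p = 0.853). The other Trem1 probe was not well above background on any array. Whether the brighter one measures Trem1 was not tested.

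Of the 10 genes, 2 were called higher and 0 lower in APP-PS1_CTR, where 0.167% of all features were called higher and 0.00284% lower. The groups did not overlap, with the transgenic arrays on top, for 6 of the 10, against 4.28% of all features. The median change of the 10 genes was 0.40, and that of all features was -0.0033. Both calls rested on few arrays and on 1 slide with the groups in different rows. Trem2 had an adjusted p of 0.0503 without APP-PS1_CTR replicate 3, at an unmoved change of 1.09. With the array row as a block, the changes of 0.98 for Trem2 (adjusted p = 0.570) and 0.99 for Tyrobp (adjusted p = 0.249) were no longer called.

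Spi1, the gene of PU.1, was measured by 1 dim probe, well above background on 7 of 24 arrays. That was the case on 2 of 4 APP-PS1_UA, 1 of 3 APP-PS1_CTR, 1 of 4 WT_CTR, 0 of 5 APP-PS1_UA-WASHOUT, 1 of 3 APP-PS1_WASHOUT and 2 of 5 WT_WASHOUT arrays. Its SD within groups reached 0.84, and its change between APP-PS1_CTR and WT_CTR was 0.30 with an interval from -0.63 to 1.23. Spi1 was not called in any contrast as reported, though some other settings called it lower against WT_WASHOUT. On the other arrays its readings were not well above background, so its changes and their intervals are uncertain.

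The treated and water transgenic groups overlapped in each of the 10 genes at the end of treatment. In 0 of them were all treated arrays above or all below the water arrays, against 6.39% and 4.61% of all features. A count of 0 in 10 is near those shares and is no result about these genes. At the end of treatment Trem2 was at 2.84, 2.54, 3.40 and 2.87 in APP-PS1_UA, against 2.96, 3.02 and 3.01 in APP-PS1_CTR. Tyrobp was at 2.42, 2.07, 2.81 and 2.24 in APP-PS1_UA, against 2.61, 2.59 and 2.63 in APP-PS1_CTR. Hcst was at -2.29, -2.49, -1.65 and -2.11 in APP-PS1_UA, against -2.22, -1.93 and -1.89 in APP-PS1_CTR. For all 3 genes the treated arrays spread on both sides of the water arrays, and APP-PS1_UA replicate 3 was the highest of the 7. Trem2 changed by -0.08 (95% interval -0.44 to 0.28), Tyrobp by -0.23 (-0.55 to 0.09) and Hcst by -0.12 (-0.49 to 0.24). These intervals leave out a difference between the treated and water groups as large as that between APP-PS1_CTR and WT_CTR. The 2 groups lay mostly on different slides, so the intervals cover urolithin A and slide together. They do not show that the levels were equal.

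In the limma model 0 of the 10 genes were called between APP-PS1_UA and APP-PS1_CTR, 0 at an unadjusted p under 0.05, and 0% of all features were called, though 2623 had an unadjusted p under 0.05. The median change of the 10 genes was -0.14, and that of all features -0.0077. Changes of the other 7 genes ran from -0.28 in Inpp5d (interval -0.68 to 0.12) to 0.46 in Spi1 (-0.47 to 1.39), with -0.27 in Cd33, -0.16 in Syk, -0.15 in Trem1, -0.13 in Plcg2 and 0.04 in Vav1. APP-PS1_CTR lay on slide 1 and 3 of the 4 APP-PS1_UA arrays on slide 2. Within slide 1 only APP-PS1_UA replicate 1 can be set against the water arrays, so a fit with slide as a block rests on that 1 treated array. Its values were -0.16 for Trem2, -0.19 for Tyrobp and -0.28 for Hcst.

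Set against wild type instead, the treated transgenic hippocampus again had higher Trem2 and Tyrobp. Trem2 rose by 1.01 (SE 0.16, 2.01-fold, adjusted p = 0.0105) and Tyrobp by 0.88 (SE 0.14, 1.84-fold, adjusted p = 0.0119) between APP-PS1_UA and WT_CTR. These 2 were the members called, with 0.0567% of all features called higher and 0.00567% lower. Hcst (0.73, adjusted p = 0.159) and Vav1 (0.44, adjusted p = 0.493) did not pass, although their 4 treated arrays were all above the 4 wild type arrays, as they were for Trem2 and Tyrobp. Such separation was seen in 1.61% of all features. Spi1 (0.76), Inpp5d (0.19), Cd33 (0.14), Plcg2 (0.09), Trem1 (0.03) and Syk (-0.08) did not pass either. This comparison shares WT_CTR with the one of APP-PS1_CTR, so the results are not independent. With slide as a block, where APP-PS1_UA replicate 1 is again the only treated array beside WT_CTR, the values were 0.93 for Trem2 (adjusted p = 0.645) and 0.92 for Tyrobp (adjusted p = 0.510). Neither gene was called without WT_CTR replicate 3 or without APP-PS1_UA replicate 3, where the adjusted p ran from 0.0579 to 0.0769, and 1 of the pair was lost without WT_CTR replicate 1 or 2 or APP-PS1_UA replicate 1.

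**Figure D2:**
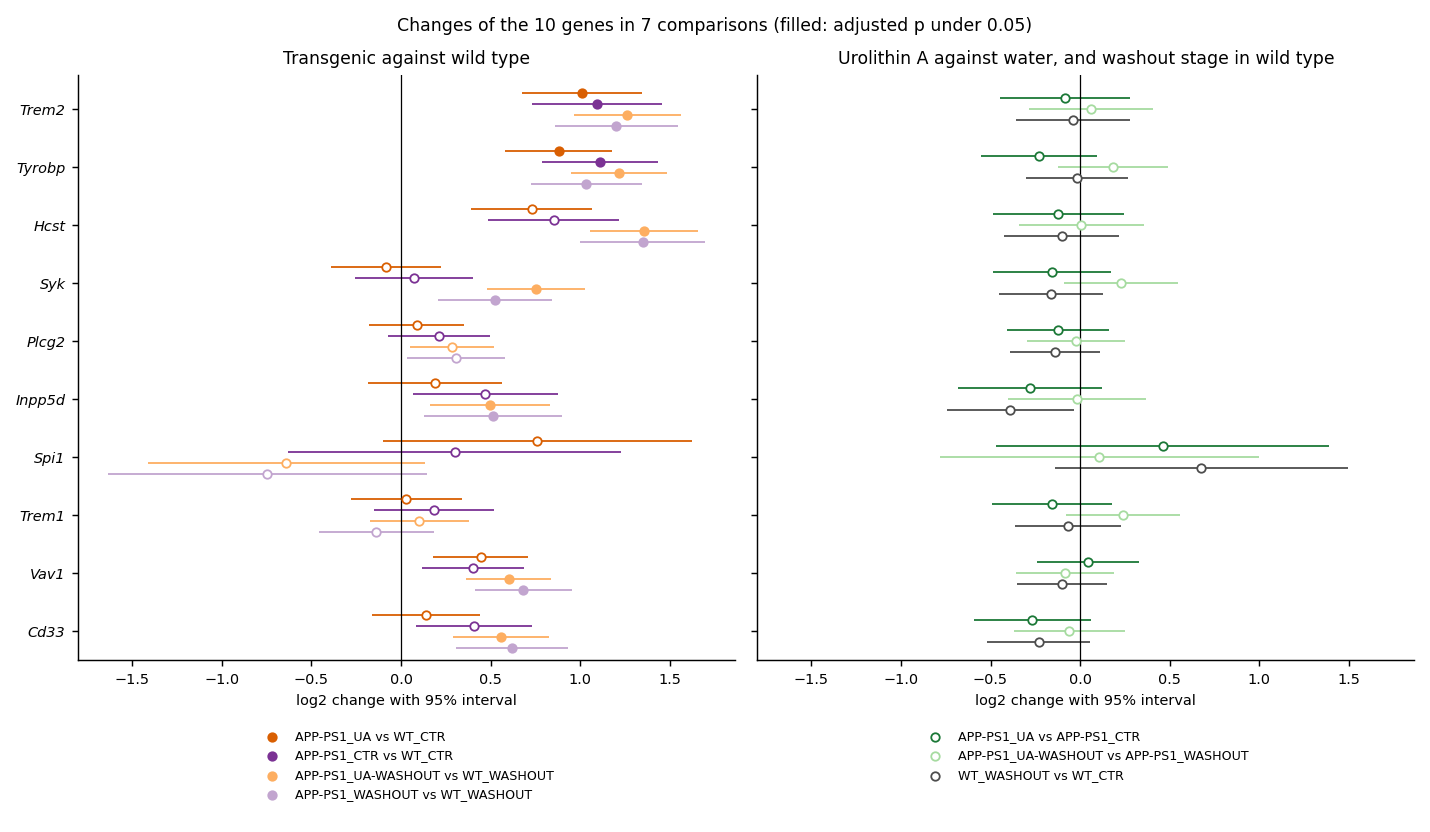
Log2 changes with 95% intervals (horizontal axis) of the 10 genes (rows) in 7 comparisons, transgenic against wild type on the left, urolithin A against water and the washout stage in wild type on the right; filled points have an adjusted p under 0.05. On the left Trem2 lies between 1.01 and 1.26 in all 4 comparisons, and on the right no point is filled.

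At the washout stage 7 of the 10 genes were called higher in APP-PS1_WASHOUT than in WT_WASHOUT, in a comparison where 19.8% of all features were. Trem2 was at 3.08, 3.44 and 2.68 in APP-PS1_WASHOUT, against 1.80, 1.74, 2.04, 1.90 and 1.86 in WT_WASHOUT. Tyrobp was at 2.49, 2.68 and 2.38 in APP-PS1_WASHOUT, against 1.46, 1.39, 1.56, 1.47 and 1.53 in WT_WASHOUT. Hcst was at -1.62, -1.20 and -2.03 in APP-PS1_WASHOUT, against -2.86, -3.13, -2.87, -3.02 and -2.96 in WT_WASHOUT. No transgenic array overlapped a wild type one in these genes, and APP-PS1_WASHOUT replicate 2 was the highest of its group in each. The rise was 1.20 for Trem2 (SE 0.17, 2.30-fold, adjusted p = 1.59e-05), 1.03 for Tyrobp (SE 0.15, 2.05-fold, adjusted p = 2.49e-05) and 1.35 for Hcst (SE 0.17, 2.55-fold, adjusted p = 4.66e-06).

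Syk, the kinase that docks on the adaptor, was at -1.86, -1.44 and -1.96 in APP-PS1_WASHOUT, against -2.01, -2.66, -2.31, -2.05 and -2.37 in WT_WASHOUT. Vav1 was at 0.06, 0.44 and -0.13 in APP-PS1_WASHOUT, against -0.77, -0.64, -0.39, -0.61 and -0.40 in WT_WASHOUT. Cd33 was at -3.15, -2.76 and -3.40 in APP-PS1_WASHOUT, against -3.63, -3.95, -3.76, -3.84 and -3.44 in WT_WASHOUT. In all 3 genes the transgenic arrays stood above the wild type ones, for Syk and Cd33 by a narrow gap. Syk rose by 0.52 (adjusted p = 0.0132), Vav1 by 0.68 (adjusted p = 0.000515) and Cd33 by 0.62 (adjusted p = 0.00375). Inpp5d was at -0.17, 0.14 and -0.41 in APP-PS1_WASHOUT, against -0.31, -0.55, -0.36, -1.19 and -0.91 in WT_WASHOUT. Its groups overlapped, with WT_WASHOUT replicates 4 and 5 well below the rest, and it rose by 0.52 (adjusted p = 0.0430). Plcg2 (0.31, adjusted p = 0.0868) and Trem1 (-0.14, adjusted p = 0.550) did not pass, nor did the dim Spi1 (-0.75, adjusted p = 0.212).

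In all, 7 of the 10 genes were called higher and 0 lower, where 19.8% of all features were called higher and 7.71% lower. The groups did not overlap, with the transgenic arrays on top, for 6 of the 10, against 21.2% of all features. The median change was 0.57 for the 10 genes and 0.07 for all features. The 3 smallest calls depended on the processing. Of all called features 72.0% were higher as reported, 38.7% with arrays scaled to their median and 41.2% with the series matrix values. Median scaling moved the all-feature median to -0.15, and Syk (0.30, adjusted p = 0.136) and Inpp5d (0.29, adjusted p = 0.203) were then not called, while Cd33 stayed called (0.39, adjusted p = 0.0414) and was lost under quantile normalisation (0.38, adjusted p = 0.0573). Syk was also lost without APP-PS1_WASHOUT replicate 2 (0.37, adjusted p = 0.121). Inpp5d was lost without WT_WASHOUT replicate 2, 4 or 5 or APP-PS1_WASHOUT replicate 1 or 2, with adjusted p from 0.0515 to 0.226.

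Mice that had received urolithin A before the washout did not differ from their water controls in any of the 10 genes by the same test. APP-PS1_UA-WASHOUT replicates 2 to 5 lay in the second row of slide 3 and all APP-PS1_WASHOUT arrays in its first. Treatment and array row can thus barely be told apart here. Trem2 was at 2.86, 3.24, 2.97, 3.31 and 3.26 in APP-PS1_UA-WASHOUT, within the 2.68 to 3.44 of APP-PS1_WASHOUT. Tyrobp was at 2.49, 2.71, 2.36, 3.05 and 2.90 in APP-PS1_UA-WASHOUT, against 2.38 to 2.68 in APP-PS1_WASHOUT. The treated and water arrays overlapped in both genes, and 3 treated arrays of Tyrobp were above all water arrays. No gene had all treated arrays above or all below the water arrays, which is near the 2.41% and 3.17% of all features. The changes were 0.06 for Trem2 (interval -0.29 to 0.40), 0.18 for Tyrobp (-0.13 to 0.49) and 0.0077 for Hcst (-0.34 to 0.36). They were 0.24 for Trem1, 0.23 for Syk, 0.11 for Spi1, -0.02 for Inpp5d, -0.02 for Plcg2, -0.06 for Cd33 and -0.08 for Vav1. Limma called 0 of the 10 genes and 0 had an unadjusted p under 0.05, where 0.0652% of all features were called. The median change was 0.03 for the 10 genes and -0.02 for all features.

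Against WT_WASHOUT, the APP-PS1_UA-WASHOUT group had the same 7 genes called higher and 0 lower, with 23% of all features called higher and 13.4% lower. Trem2 rose by 1.26 (adjusted p = 6.97e-07), Tyrobp by 1.22 (adjusted p = 2.56e-07), Hcst by 1.36 (adjusted p = 3.15e-07) and Syk by 0.75 (adjusted p = 0.000121). Vav1 rose by 0.60, Cd33 by 0.56 and Inpp5d by 0.50. Plcg2 (0.29, adjusted p = 0.0538), Trem1 (0.10, adjusted p = 0.589) and the dim Spi1 (-0.64, adjusted p = 0.189) did not pass. The same 6 genes as in APP-PS1_WASHOUT had no overlap with WT_WASHOUT, against 17.2% of all features. Both comparisons use the same 5 WT_WASHOUT arrays and the same slide 3. Of all called features 63.2% were higher as reported, 29.4% with median scaling and 32.7% with the series matrix values. Under median scaling the all-feature median was -0.26, and Inpp5d (0.20, adjusted p = 0.264) and Cd33 (0.26, adjusted p = 0.0823) were not called.

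In wild type mice none of the 10 genes differed between the stages by this test. WT_CTR lay on slide 1 and WT_WASHOUT on slide 2, so stage, age and slide cannot be told apart here. Limma called 0 of the 10 between WT_WASHOUT and WT_CTR and 1 had an unadjusted p under 0.05, where 0.017% of all features were called. That gene was Inpp5d, at -0.39 (unadjusted p = 0.0325, adjusted p = 0.570). Trem2 differed by -0.04 (interval -0.36 to 0.28) and Tyrobp by -0.02 (-0.30 to 0.26). The differences were 0.68 for the dim Spi1, -0.07 for Trem1, -0.10 for Vav1, -0.10 for Hcst, -0.14 for Plcg2, -0.16 for Syk and -0.23 for Cd33. In the order of its group means Trem2 stood at 3.13 ± 0.20 in APP-PS1_UA-WASHOUT, 3.07 ± 0.38 in APP-PS1_WASHOUT, 3.00 ± 0.03 in APP-PS1_CTR and 2.91 ± 0.36 in APP-PS1_UA (SD, n = 5, 3, 3 and 4). Then came 1.90 ± 0.10 in WT_CTR (n = 4) and 1.87 ± 0.11 in WT_WASHOUT (n = 5). Only the step between APP-PS1_UA and WT_CTR exceeded the spread of the neighbouring groups. Tyrobp ran from 2.70 ± 0.28 in APP-PS1_UA-WASHOUT (n = 5) to 1.48 ± 0.07 in WT_WASHOUT (n = 5), with APP-PS1_CTR second at 2.61 ± 0.02 (n = 3), and its largest step fell between the same 2 groups.

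The transgene effect was then compared between the stages by an interaction term. Its groups lay on slide 1 at the end of treatment and on slides 2 and 3 at the washout stage. Stage and slide therefore cannot be told apart in it. Hcst had 0.50 more of a rise at the washout stage than at the end of treatment (SE 0.24, adjusted p = 0.188) and Syk 0.45 more (SE 0.22, adjusted p = 0.188). For Trem2 the difference was 0.11 (interval -0.39 to 0.61) and for Tyrobp -0.08 (-0.52 to 0.37). It was 0.28 for Vav1, 0.21 for Cd33, 0.09 for Plcg2, 0.05 for Inpp5d, -0.32 for Trem1 and -1.04 for the dim Spi1. Limma called 0 of the 10 genes and 0 had an unadjusted p under 0.05, where 14.3% of all features were called. A larger number of calls at the washout stage is therefore not a shown difference between the stages for any of these genes. The urolithin A effect likewise did not differ between the stages by this test, with 0 of the 10 called, 0 at an unadjusted p under 0.05, and 0.00851% of all features called. Its largest value among the genes measured above background throughout was 0.41 in Tyrobp (SE 0.21, adjusted p = 0.535). It was 0.39 in Trem1, 0.38 in Syk, 0.26 in Inpp5d, 0.21 in Cd33, 0.14 in Trem2, 0.13 in Hcst, 0.10 in Plcg2, -0.13 in Vav1 and -0.35 in the dim Spi1.

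Hcst, Syk and Trem1 had more than 1 probe. The 4 probes of Hcst ran the same way, with changes of 0.80 to 1.01 between APP-PS1_CTR and WT_CTR, and no transgenic array of any Hcst probe overlapped a wild type one there. In the fit over all 43973 kept probes, A_52_P170188 was called (1.01, adjusted p = 0.0344) and the other 3 were not (adjusted p = 0.0518, 0.0789 and 0.257). At the washout stage all 4 were called between APP-PS1_WASHOUT and WT_WASHOUT, with changes of 0.99 to 1.35. The dimmer Syk probe A_66_P138936 rose by 0.99 there (adjusted p = 0.00704), beside 0.52 for the brighter one. It had -0.52 between APP-PS1_UA and APP-PS1_CTR (SE 0.27, adjusted p = 0.635), a difference that was not called. The dim Trem1 probe was below the threshold of detection on all arrays, while the brighter one was well above background on all 24. In WT_CTR their means were far apart, at -8.28 for the dim probe and 0.97 for the brighter one. Which of them follows Trem1 was not tested, so every result given for Trem1 is that of the brighter probe alone. Readings of the dim probe were -7.88 to -6.72 in APP-PS1_UA-WASHOUT, against -8.16 to -7.85 in APP-PS1_WASHOUT. Of the 5 APP-PS1_UA-WASHOUT arrays 4 shared the row of slide 3 on which the lowest processed signals were 7.64 to 11.6, against 2.69 to 5.35 on the other 20 arrays.

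**Figure D3:**
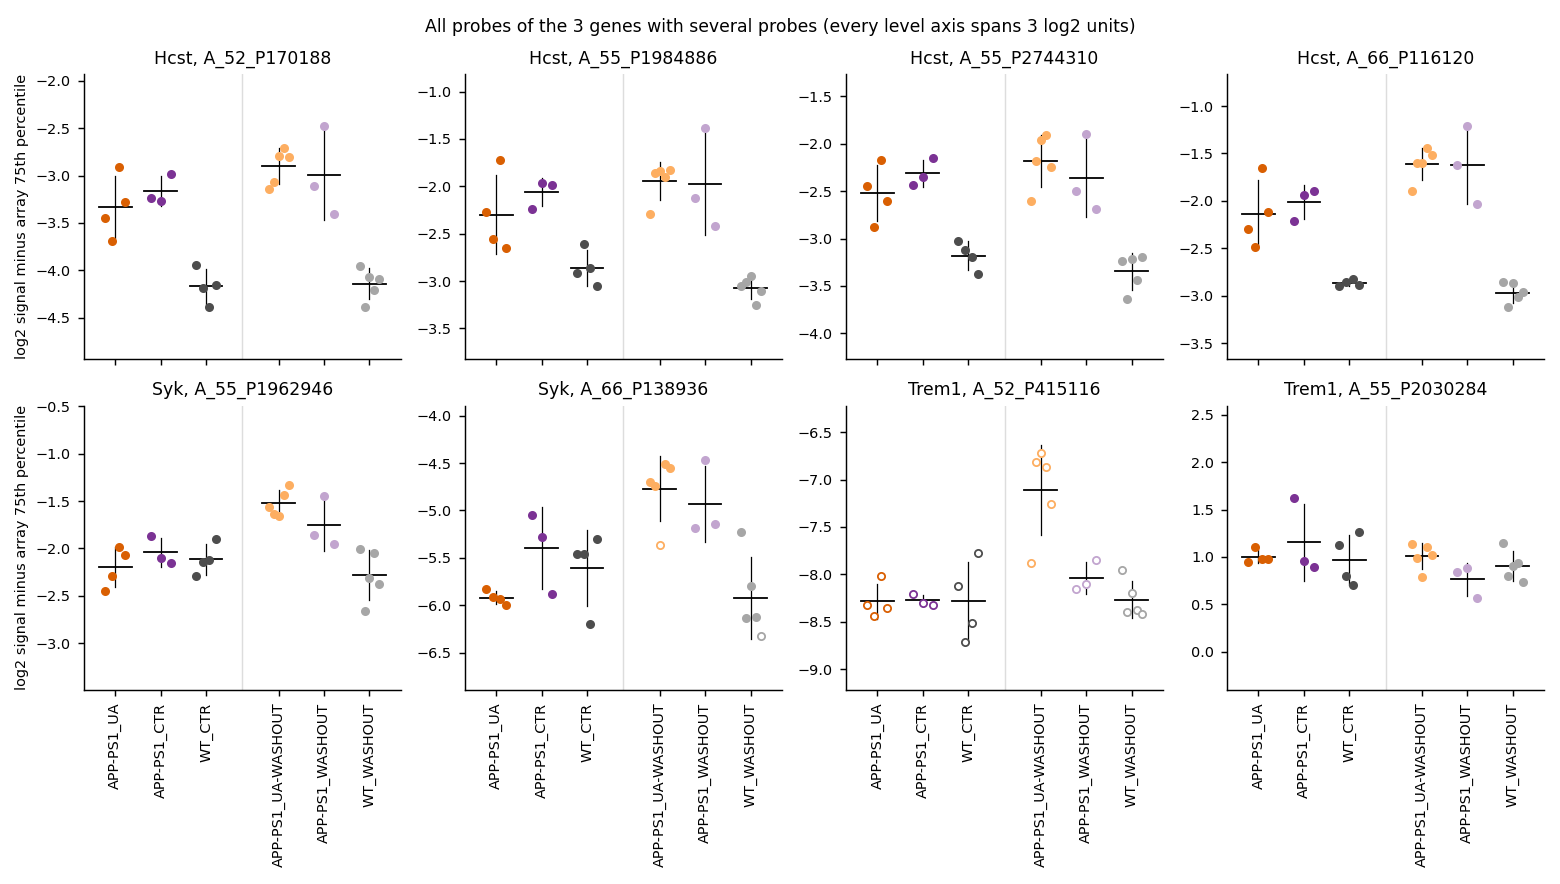
Log2 signal minus the array's 75th percentile (vertical axis) of every probe of Hcst, Syk and Trem1 on each array, by group; points are arrays (open: not well above background), bars are means and lines 1 SD. All 4 Hcst probes have the transgenic arrays above the wild type ones, and the dim Trem1 probe is open on all 24 arrays.

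Because these genes are expressed by microglia, their changes were set beside those of 10 other microglial markers, among them Aif1, Csf1r, Cx3cr1, P2ry12, Tmem119, Itgam, C1qa, C1qb and Gpr34. Between APP-PS1_CTR and WT_CTR 0 of the 10 markers were called, and their median change was 0.42. Their summed linear signal, in units of the array's 75th percentile, ranged from 91.6 to 112 in APP-PS1_CTR, against 69.1 to 82.5 in WT_CTR. Between APP-PS1_WASHOUT and WT_WASHOUT 7 were called higher, where 19.8% of all features were. Their median change was 0.54, and the sums were 120 to 154, against 63.7 to 79.2. Sums were 82.5 to 97.8 in APP-PS1_UA and 120 to 154 in APP-PS1_UA-WASHOUT. The marker sum thus did not overlap between transgenic and wild type arrays at the washout stage, nor between APP-PS1_CTR and WT_CTR.

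Measured against the mean of these markers on the same array, a quantity chosen after the values had been seen, the receptor and its adaptors kept a positive change. Trem2 kept a change of 0.69 (95% interval 0.42 to 0.97) between APP-PS1_CTR and WT_CTR, Tyrobp 0.71 (0.46 to 0.96) and Hcst 0.45 (0.15 to 0.75). At the washout stage, between APP-PS1_WASHOUT and WT_WASHOUT, these were 0.62 (0.36 to 0.88), 0.45 (0.22 to 0.69) and 0.77 (0.48 to 1.05). All 3 genes thus changed by more than the marker mean, with intervals above 0. The single markers spread widely, from 0.02 (Tmem119) to 0.73 at the end of treatment and from 0.07 (P2ry12) to 1.35 (Itgam) at the washout stage, where Itgam was above the 1.20 of Trem2 and the 1.03 of Tyrobp. The intervals of Vav1 included 0, with 0.00076 (-0.23 to 0.23) at the end of treatment and 0.10 (-0.12 to 0.32) at the washout stage. So did those of Cd33, with 0.0076 (-0.29 to 0.31) and 0.04 (-0.25 to 0.32), and of Inpp5d, with 0.07 (-0.25 to 0.39) and -0.07 (-0.38 to 0.24). The remaining 4 genes changed by less than the marker mean at both stages, most with intervals that included 0. Trem1, by its brighter probe alone, was at -0.22 (-0.57 to 0.14) at the end of treatment. At the washout stage Trem1 was at -0.72 (-1.06 to -0.38). The dim Spi1, not well above background on most arrays, was at -0.10 (-1.09 to 0.89) and -1.33 (-2.28 to -0.38), and these intervals are uncertain. Syk, by its brighter probe alone, was at -0.33 (-0.67 to 0.01) and -0.06 (-0.38 to 0.27), and Plcg2 at -0.19 (-0.49 to 0.12) and -0.28 (-0.57 to 0.02). Between APP-PS1_UA and APP-PS1_CTR the value was 0.0060 for Trem2 (-0.27 to 0.28) and -0.14 for Tyrobp (-0.39 to 0.11).

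**Figure D4:**
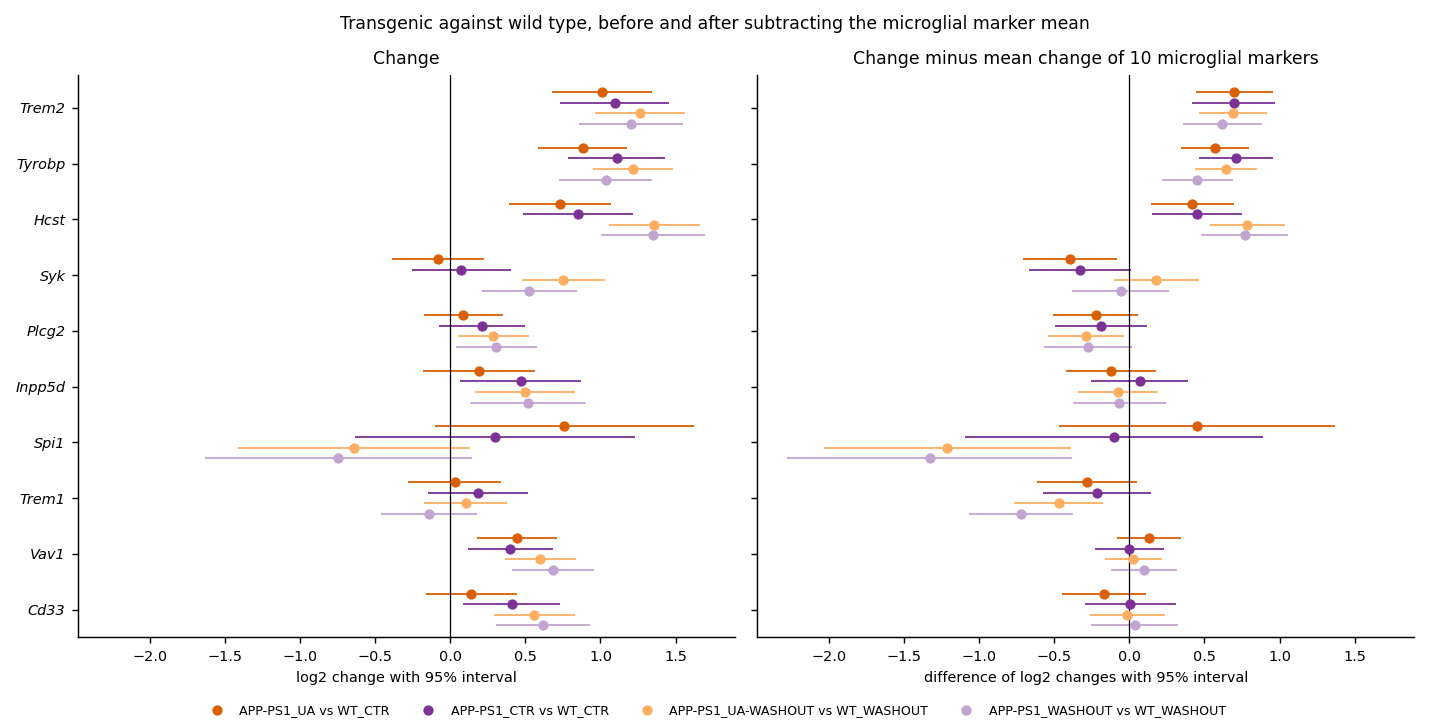
Log2 changes of the 10 genes (rows) with 95% intervals in 4 comparisons of transgenic with wild type groups (left), and the same after subtracting the mean change of 10 microglial markers (right). On the right the intervals of Trem2, Tyrobp and Hcst stay above 0 in all 4 comparisons, and those of Vav1, Cd33 and Inpp5d include 0. Those of Trem1 and the dim Spi1 lie below 0 in both washout comparisons. So do that of Syk in APP-PS1_UA and that of Plcg2 in APP-PS1_UA-WASHOUT.

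Some markers of other cells also differed at the washout stage, where 19.8% of all features were called higher between APP-PS1_WASHOUT and WT_WASHOUT. Among 9 neutrophil and monocyte markers 4 were called higher in APP-PS1_WASHOUT than in WT_WASHOUT, with summed signals of 12.6 to 16.8, against 11.8 to 14.4. Among 6 measured markers of T, B and NK cells 4 were called higher, with sums of 9.27 to 15.4, against 4.99 to 8.26. Between APP-PS1_UA-WASHOUT and WT_WASHOUT 2 of the 9 and 2 of the 6 were called higher, where 23% of all features were. Between 6 and 9 of the 9 neutrophil and monocyte markers were well above background on an array, and 4 to 6 of the 6 of T, B and NK cells. The monocyte receptor Ccr2 was so on 4 of 24 arrays, and the B cell gene Cd79a, not among the 6 measured, on 0. None of either list was called between APP-PS1_CTR and WT_CTR. The 5 measured blood genes had a median change of -1.33 between APP-PS1_WASHOUT and WT_WASHOUT, with 0 called. The choroid plexus list of 8 genes had sums of 195 to 310 in APP-PS1_CTR, against 26.8 to 373 in WT_CTR, with 0 called there. The part of these markers in the changes of the 10 genes was not tested.

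The 10 genes were placed beside 83 measured genes of 7 lists around the receptor. Between APP-PS1_CTR and WT_CTR 7 of the 83 were called higher and 0 lower, where 0.167% of all features were called higher. Of 13 inhibitory receptors and phosphatases 4 rose and 9 did not pass, with a list median of 0.65. Lilrb4a, an inhibitory receptor of myeloid cells, rose by 2.34 (5.07-fold, adjusted p = 0.000897), Fcgr2b, the Fc receptor that restrains activation, by 1.30 (adjusted p = 0.0195), the leukocyte phosphatase Ptprc (CD45), which can also activate Src family kinases, by 0.89 (adjusted p = 0.0250) and Ptpn6 (SHP-1) by 0.88 (adjusted p = 0.0387). Of 11 myeloid transcription factors 2 rose, Irf8 by 0.68 (adjusted p = 0.0212), which pairs with PU.1, and Runx1 by 0.67 (adjusted p = 0.0335). Of 6 genes of the Ms4a cluster 1 rose, Ms4a6d, by 0.68 (adjusted p = 0.0212). None passed among 9 other adaptor-linked receptors, 10 ligands and shedding enzymes, 18 Src family kinases and adaptors or 16 lipid and calcium signalling genes. The list medians lay between 0.10 and 0.65, above the all-feature median of -0.0033.

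Between APP-PS1_WASHOUT and WT_WASHOUT 30 of the 83 were called higher and 3 lower, where 19.8% of all features were called higher and 7.71% lower. Of the 13 inhibitory receptors and phosphatases 8 rose, and the 6 with the lowest adjusted p were Siglece (1.73) and Siglecf (1.02), sialic acid receptors of the same family as CD33, Cd300a (1.08), Lilrb4a (1.79), Ptprc (0.72) and Ptpn6 (0.77). Of the 9 adaptor-linked receptors 5 rose, Cd300lb (2.96), Siglech (1.66), Pilrb1 (1.04), Clec5a (0.56) and the growth factor receptor Csf1r (0.55), which is also among the microglial markers. Of 18 Src family kinases and adaptors 5 rose and 1 fell, with the kinases Fgr at 2.11, Btk at 0.80 and Lyn at 0.48, the adaptors Lat at 0.74 and Sh3bp2 at 0.74, and the inhibitory adaptor Dok3 at -0.76. Of 16 lipid and calcium signalling genes 4 rose and 2 fell, and of 10 ligands and shedding enzymes 2 rose, shares near those of all features. These 2 were the apolipoprotein genes Apoe (0.36) and Clu (0.36), and at that share they give no result about the ligands of TREM2. Of 11 transcription factors 4 rose, Spic (1.78), Irf8 (1.01), Runx1 (0.87) and Irf5 (0.49), and of 6 Ms4a genes 2, Ms4a4b (1.96) and Ms4a6c (1.44). The list medians lay between -0.0070 and 0.85, with an all-feature median of 0.07. In APP-PS1_UA-WASHOUT 34 of the 83 were called higher and 7 lower than in WT_WASHOUT, where 23% of all features were called higher and 13.4% lower.

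Between the urolithin A and water groups 0 of these 83 genes were called at either stage, with lowest adjusted p of 0.637 between APP-PS1_UA and APP-PS1_CTR and 0.174 between APP-PS1_UA-WASHOUT and APP-PS1_WASHOUT. The median of the inhibitory list was -0.33 between APP-PS1_UA and APP-PS1_CTR, where the all-feature median was -0.0077, and 0.05 between APP-PS1_UA-WASHOUT and APP-PS1_WASHOUT. Against WT_CTR, APP-PS1_UA had 1 of the 83 called, Lilrb4a, at 1.84 (adjusted p = 0.0105).

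**Figure D5:**
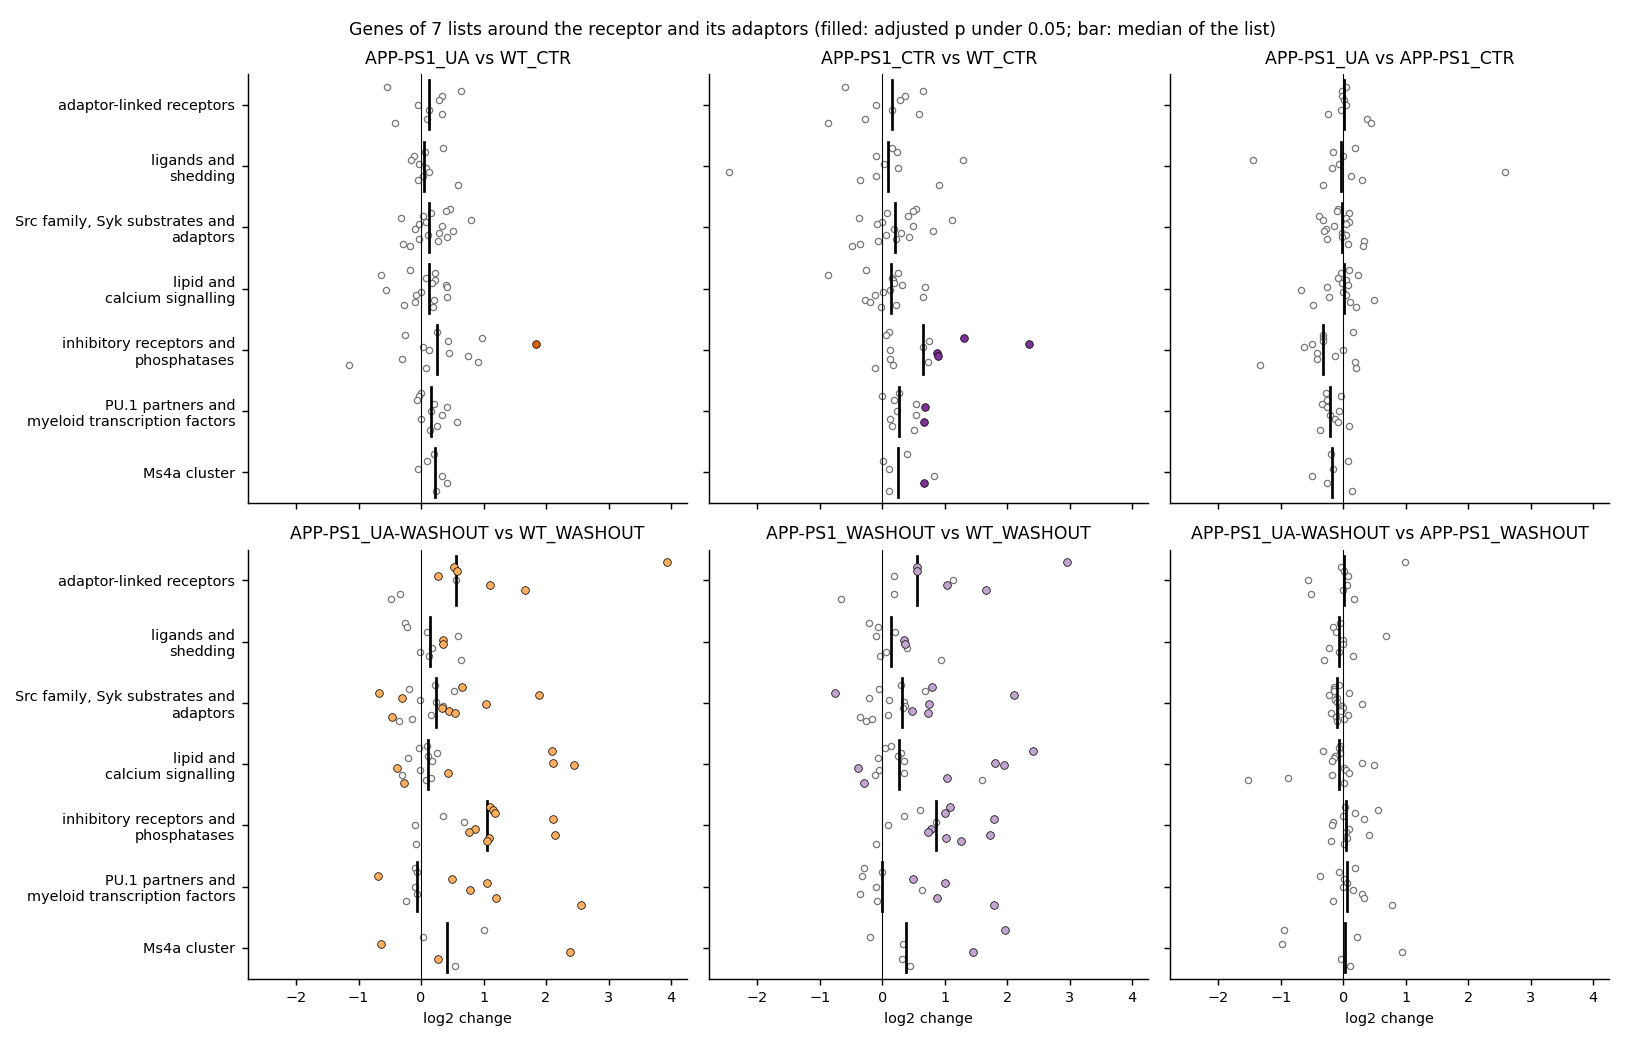
Log2 changes (horizontal axis) of the measured genes of 7 lists (rows) in 6 comparisons, end of treatment above and washout stage below; filled points have an adjusted p under 0.05 and bars are list medians. The panels of urolithin A against water have no filled point, and the inhibitory list has 4 filled points between APP-PS1_CTR and WT_CTR.

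The genes whose pattern over the 24 arrays was most like that of Trem2 were found by the root mean square difference of log2 values, each gene centred on its own mean, among 18565 genes. Tyrobp was the closest, at 0.13, followed by Mpeg1 (0.16), a pore-forming protein of macrophages, Hcst (0.16), the complement component C4b (0.16) and the lysosomal Cd68 (0.17). The median gene was at 0.67. For Tyrobp the closest were Trem2 (0.13), Mpeg1 (0.15), Il4i1 (0.17), Cd68 (0.17) and the phagosomal transporter Slc11a1 (0.18). The other members ranked 53 for Vav1, 134 for Cd33, 277 for Syk, 288 for Inpp5d, 494 for Plcg2, 4205 for Trem1 and 16608 for Spi1 in likeness to Trem2. With each gene centred on its 6 group means, so that differences between groups dropped out, Hcst was the closest of all genes to Trem2 (0.09), Tyrobp the second (0.11) and Vav1 the third (0.12). The other members were far off, at 624 for Plcg2, 628 for Syk, 756 for Cd33, 4240 for Inpp5d, 5849 for Trem1 and 16621 for Spi1. In likeness to Tyrobp by this measure Trem2 ranked 2, Vav1 10 and Hcst 110. The median of 0.67 belongs to the first measure only. These arrays share slides, and the measure describes them only.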

How the data were processed

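Hippocampal RNA of 24 mice was measured on 24 Agilent 1-colour arrays. Per the file headers, the authors ran Feature Extraction 12.0.3.1, and the intensities they deposited are background-subtracted processed signals on a linear scale with no normalization across arrays. The values of the series matrix, as deposited, are a score, each array's log signal standardized over its spots, within 0.005 of the value recomputed here, and its column medians ran from -0.17 to -0.06. Its log base and the authors' test are not given in the sources used here.

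Outlier-flagged spots were left out (1125 values of kept probes, 0 of the 15 probes described), replicate spots were averaged on the log2 scale, and the array's 75th percentile was subtracted. Probes well above background on at least 3 arrays and with at least 2 values per group were kept (43973 of 56605), and 0 spots were saturated. A gene took its kept probe with the highest mean. Of the probes, 32994 had 1 symbol in the RefSeq table and 23611 none. R 4.3.3 with limma 3.58.1 fitted 6 group means and 9 contrasts. On simulated data for APP-PS1_CTR against WT_CTR (35259 features) the fit recovered 18% of 50 genes changed by 0.5, 52% at 1 and 86% at 2 on the log2 scale, with 7 false calls. Python 3.11.15, pandas 2.3.3, numpy 2.4.6 and matplotlib 3.10.9 made tables and plots. The scanner files had no mean signal column, so normexp used the median signal.

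Some markers and list genes are not reported here. All 10 genes are named in every comparison, and genes of a list only where called, at most 6 by adjusted p. The members, lists and rules were chosen with earlier results of these data known. Alternatives covered normalization, background, filters, probe choice, slide, array row, replicate number and leaving out each array.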

Additional observations from a re-analysis of the deposited data

Results flagged for a closer look

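The gene Plcg2 was at 0.92 on the array of APP-PS1_UA replicate 4, while the other 3 arrays of that group lay between 0.45 and 0.52. The gap to its nearest neighbour was 0.863 of the group's range, above the 95% critical value of Dixon's test for 4 samples. This was 1 of 40 sets of 4 or 5 arrays examined among the 10 genes, and chance flags about 1 in 20.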

How the results depend on the processing

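Under the alternatives, the 18 gene and comparison pairs called as reported had 434 values. Of these, 389 kept direction and side of the threshold, 44 kept direction but were no longer called, and 1 reversed. The reversal was Cd33 between APP-PS1_UA-WASHOUT and WT_WASHOUT, at -0.012 with the series matrix values, and the cause was not tested. The count of called members was 0 with array row as a block between APP-PS1_CTR and WT_CTR, and 0 between APP-PS1_UA and WT_CTR with only the groups compared, and also with slide as a block and within slide 1, which both rest on 1 treated array. For the transgene effect at washout minus end of treatment it was 1 with quantile normalization (Spi1, -2.00, adjusted p = 0.0311) and 1 with array weights (Syk, 0.69, adjusted p = 0.0210). With 1 array left out the count ran from 1 to 2 for APP-PS1_CTR and 0 to 2 for APP-PS1_UA against WT_CTR, from 5 to 8 for APP-PS1_WASHOUT and 6 to 8 for APP-PS1_UA-WASHOUT against WT_WASHOUT, and was 0 in the other 5 comparisons. Both urolithin A comparisons had 0 members called under every alternative. Some genes not called as reported passed elsewhere. Hcst between APP-PS1_CTR and WT_CTR passed under 5 of 17 other settings. Between APP-PS1_UA-WASHOUT and WT_WASHOUT, Plcg2 passed under 5 of 15 and the dim Spi1, lower, under 3 of 14. Between APP-PS1_WASHOUT and WT_WASHOUT, Plcg2 passed under 2 of 15 and the dim Spi1, lower, under 2 of 14. Slide blocks could not be fitted where slide 3 met the others. Groups share replicate numbers, but same-numbered arrays did not deviate together (12 of 52 correlations over 0.1, range -0.27 to 0.32). With the replicate number as a block 0 members were called between APP-PS1_UA and WT_CTR (Trem2 1.01 and Tyrobp 0.88, adjusted p = 0.0551 for both).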
